A study of Homo sapiens with 48 samples.

Results

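The measurements concern 7 genes of cellular sodium and potassium handling: the kinases SGK1 and SGK3, the sodium channel subunit SCNN1A, the ubiquitin ligase NEDD4L, the sodium pump subunit ATP1B1 and the potassium channels KCNA5 and KCNJ16. They were taken by gene symbol from the platform annotation, 7 of the 20046 symbols it names, which gave 14 of the 47323 probes on Illumina HT-12 v4 bead arrays. Of these, 11 probes passed the filter on dim probes, among the 20912 that passed in all. Each of the 7 genes kept at least 1 probe, and its brightest probe over all 48 arrays leads the account. The 3 probes that did not pass, SGK1 probe 4, SGK3 probe 3 and KCNJ16 probe 2, were above background on 0, 0 and 1 arrays. KCNJ16 passed through 2 groups alone and KCNA5 mainly through the hormone groups, so that passing the filter is itself tied to their change.

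All arrays carried RNA of U2OS cells, a human osteosarcoma line, from 1 clone that stably expresses the wild-type glucocorticoid receptor alpha of the rat, and every group shares that receptor. The cells had no siRNA (NI), a nonspecific siRNA (siNS) or the siRNA siHic5_2 against Hic-5, the product of TGFB1I1, at 60 pmol per well. Each state was sampled without hormone (0 h) and after 2, 4 and 24 h of dexamethasone, a synthetic glucocorticoid, with 4 arrays per group and 12 groups in all. Harvest was simultaneous, so the 24 h wells met the hormone sooner after transfection than the others, and a single siRNA sequence against Hic-5 was used. The study's question, by its title, is the part that Hic-5, a coregulator of steroid receptors, has in gene regulation by glucocorticoid. Whether replicates came from different cultures is not in the labels, and p-values cover the spread among these arrays alone, part of which may be technical.

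In kidney collecting duct and other tight epithelia, corticosteroids raise sodium uptake through the epithelial sodium channel, ENaC, whose pore is built from alpha (SCNN1A), beta and gamma subunits. SGK1 is a serine/threonine kinase whose gene is switched on by glucocorticoids and aldosterone. It phosphorylates NEDD4L, a HECT ubiquitin ligase that otherwise removes ENaC from the membrane, and SGK3 is a related kinase of endosomes. Sodium leaves the cell through the Na,K-ATPase, of which ATP1B1 is a beta subunit. KCNA5 (Kv1.5) is a voltage-gated potassium channel of heart and smooth muscle, and KCNJ16 (Kir5.1) an inward rectifier that works in pairs with other Kir subunits in kidney.

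Promoter windows from 250 bases before to 50 after the start were matched by symbol in RefSeq's table of build GRCh38.p14 for 5 of the 7 genes, 13 windows in all: 3 of SGK1, 5 of NEDD4L, 1 of ATP1B1, 1 of KCNA5 and 3 of KCNJ16. The KCNA5 window is shown because this gene rose with hormone in all 3 states, and because it was the one member window with a match to the palindrome core of the glucocorticoid response element. In it the capitals mark that match, at position -210 from the start, on chr12:5043629-5043878 of the plus strand, 250 bases upstream of the start.
KCNA5 promoter: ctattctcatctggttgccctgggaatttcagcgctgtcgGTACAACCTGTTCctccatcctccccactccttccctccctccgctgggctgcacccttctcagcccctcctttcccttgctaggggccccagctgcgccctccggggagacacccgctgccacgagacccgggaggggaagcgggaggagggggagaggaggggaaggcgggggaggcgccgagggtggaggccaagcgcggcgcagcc
The core searched on both strands was GNACA and TGTNC with 3 bases of any kind between them, which 0.39% of the 35116 windows of the same length hold. The full element, AGAACA and TGTTCT with 3 bases between, is held by 0.00285%, and the single arm AGAACA by 14.8%. The full element contains both other motifs. No member window held it. The single arm occurred in 1 of the 3 SGK1 windows, at position 6, and in 1 of the 5 NEDD4L windows, at position -78. A match is a description of these letters and not a shown binding site.

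Levels are normalised log2 intensities, and each probe has its own scale, so levels of different probes are not set against each other. A probe was above background on an array when under 1 in 100 negative controls were as bright. If no array of a group was above background, only a limit on the fold is given ("at least"), taking for each dim array the larger of the probe's signal and the dimmest signal that counted as above background. Differences come from a limma model of the 12 group means over all 48 arrays, with Benjamini-Hochberg adjustment over the 20912 probes, and were called at an adjusted p under 0.05. Each difference has its standard error (SE) from that fit.

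The array as a whole gave these checks. Between 31.7 and 38.3% of probes were above background on each array. TGFB1I1, the siRNA target, differed by -3.41 and -3.33 between siHic5_2 and siNS cells at 0 and 2 h (limma adjusted p at most 2.68e-12) and was above background on 2, 1, 0 and 0 of the siHic5_2 arrays at 0, 2, 4 and 24 h. Of 7 osteosarcoma and mesenchymal markers 5 were above background on all arrays, COL1A2 on 1 and TWIST1 on 0. Of 6 collecting duct markers 5 were on 0 arrays, among them SCNN1B and SCNN1G, the other ENaC pore subunits, while AVPR2 was on 42. The epithelial markers EPCAM and ELF3 were on 48 and 28 arrays, CLDN4 on 2, and CDH1 and KRT19 on 0. Blood and endothelial markers were on 0 arrays for PTPRC, CD3E and CDH5, and on 3 to 19 for PECAM1, CD14, KDR, CD79A and VWF. In bulk RNA, fewer cells of a type and less RNA per cell cannot be told apart.

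**Figure D1:**
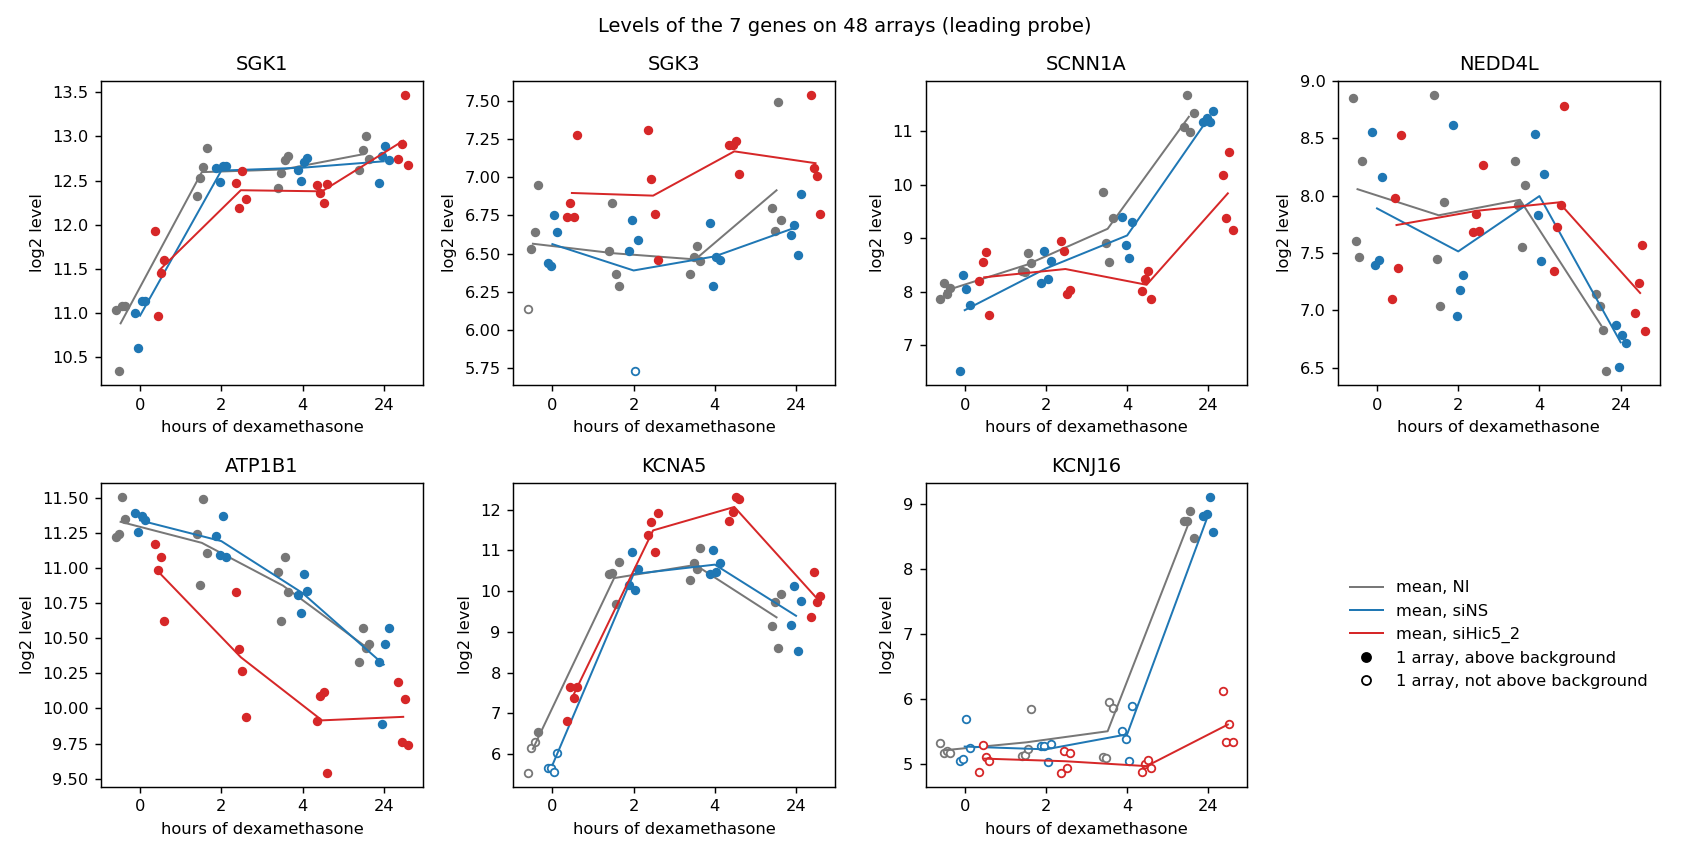
Normalised log2 level (vertical axis, 1 scale per panel) of the leading probe of each gene against hours of dexamethasone, for NI, siNS and siHic5_2 cells. Each point is 1 array, open where the probe was not above background, and lines join the means of 4 arrays. KCNA5 is highest in siHic5_2 cells at 2 and 4 h, ATP1B1 lowest there at 4 h, and KCNJ16 is above background in NI and siNS cells at 24 h only.

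SGK1, the hormone-induced kinase, rose with dexamethasone in all 3 states. In NI and siNS cells its level was about as high at 2 h as at 24 h. Before hormone the 4 siNS arrays read 11.00, 10.60, 11.14 and 11.14, a mean of 10.97 ± 0.26 (SD, n = 4). They read 12.64, 12.48, 12.67 and 12.66 at 2 h, 12.62, 12.50, 12.71 and 12.75 at 4 h, and 12.47, 12.78, 12.89 and 12.73 at 24 h. Every siNS array with hormone thus lay above every array without it. The siNS response was 1.64, 1.68 and 1.75 (SE 0.171 each), or 3.13-fold, 3.2-fold and 3.35-fold, with limma adjusted p-values of 2.54e-09, 6.03e-10 and 4.66e-11. NI cells gave 1.71, 1.74 and 1.92, from a 0 h level of 10.88 ± 0.36 (SD, n = 4).

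In siHic5_2 cells SGK1 also rose with hormone at each time. The 4 arrays without hormone read 11.93, 10.97, 11.45 and 11.60, a mean of 11.49 ± 0.40 (SD, n = 4). They read 12.47, 12.19, 12.61 and 12.29 at 2 h and 12.45, 12.36, 12.24 and 12.46 at 4 h. At 24 h they read 12.74, 12.91, 13.47 and 12.68, of which replicate 3 was the highest SGK1 value on any array. The siHic5_2 groups with and without hormone did not overlap. Their response was 0.90, 0.89 and 1.46 (SE 0.171), or 1.87-fold, 1.85-fold and 2.75-fold, with limma adjusted p-values of 0.00055, 0.000252 and 4.72e-09. Fitting only both groups compared ended the 2 h call (adjusted p = 0.059).

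Against siNS, the SGK1 level of siHic5_2 cells was called at 0 h alone, higher by 0.52 (SE 0.171, limma adjusted p = 0.0256), and the 2 groups overlapped there. That call ended without siHic5_2 replicate 1 (0.37) or replicate 4 (0.48), and without siNS replicate 2 (0.39). It also ended with median scaling (0.53, adjusted p = 0.102) and with only the 2 groups fitted (adjusted p = 0.143). Within the 4 slides that held both groups the difference ran from -0.03 to 1.00, higher on 3 of them. At 2, 4 and 24 h the differences were -0.22, -0.27 and 0.23, with adjusted p-values of 0.403, 0.26 and 0.366, although the siHic5_2 and siNS arrays did not overlap at 4 h. The difference of the responses was -0.74 at 2 h, with a 95% interval of -1.23 to -0.25, -0.79 at 4 h (-1.28 to -0.30) and -0.28 at 24 h (-0.77 to 0.20). None was called in the main fit, which has no replicate term (adjusted p = 0.599, 0.187 and 0.744). Over 27 alternative fits, the replicate blocks among them, none was called either. The lowest limma adjusted p was 0.0515, at 4 h, close to the threshold. A smaller SGK1 response with siHic5_2 was thus not shown over all probes tested.

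Probes 2 and 3 of SGK1 read the same course on their own scales. In siNS cells probe 2 rose by 1.52, 1.68 and 1.96 and probe 3 by 1.66, 1.69 and 1.86 at 2, 4 and 24 h. At 0 h the siHic5_2 difference was 0.46 on probe 2 (limma adjusted p = 0.0671, not called) and 0.54 on probe 3 (adjusted p = 0.0144). For probe 3 the difference of the responses at 4 h was -0.94 (adjusted p = 0.0523) and for probe 2 it was -0.91 (adjusted p = 0.119). All 3 probes target the same transcript record per the annotation, so they are readings of 1 RNA and not replicates. SGK1 probe 4 was not above background on any array.

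**Figure D2:**
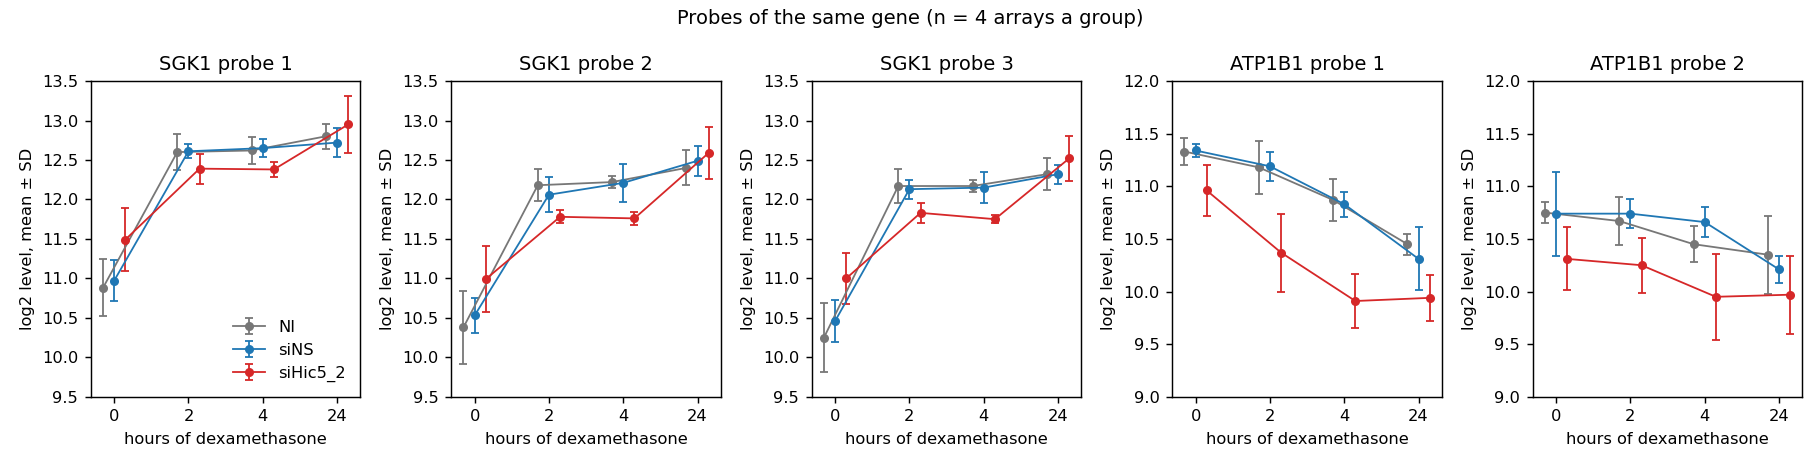
Mean log2 level with SD over 4 arrays (vertical axis) against hours of dexamethasone for the 3 SGK1 probes and the 2 ATP1B1 probes above background on all arrays, by transfection state. The SGK1 probes share their course, while the fall at 24 h in siNS cells is -1.03 on ATP1B1 probe 1 and -0.53 on probe 2.

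SGK3, the endosomal relative, did not share the hormone rise of SGK1. Its leading probe was dim, with group means from 6.39 to 7.17, and was not above background on 2 of the 48 arrays. The hormone differences of SGK3 ran from -0.18 to 0.11 in siNS cells, and none was called in any state. Across its 12 group means every neighbour in order overlapped. The siHic5_2 arrays at 4 h read 7.21, 7.21, 7.24 and 7.02 and the siNS arrays 6.70, 6.29, 6.48 and 6.46, with no overlap. SGK3 was higher there by 0.69 (SE 0.195, limma adjusted p = 0.00742). At 0, 2 and 24 h the difference was 0.33, 0.49 and 0.42, not called (adjusted p = 0.242, 0.0679 and 0.118). The 2 h difference was called with the slide as a block (0.60, adjusted p = 0.0297) and without siHic5_2 replicate 4 (0.63) or siNS replicate 2 (0.60) at that time. Probe 2 of SGK3, above background on 9 arrays, differed by 0.21 at 4 h and was not called (adjusted p = 0.583).

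SCNN1A, the alpha subunit of ENaC, rose at 4 h and further at 24 h in NI and siNS cells, and its 24 h rise was smaller with siHic5_2. In siNS cells the arrays read 6.51, 8.31, 8.04 and 7.75 at 0 h, a mean of 7.65 ± 0.79 (SD, n = 4), in which replicate 1 was low. With hormone they read 8.16, 8.76, 8.23 and 8.58 at 2 h, 9.39, 8.88, 8.62 and 9.31 at 4 h, and 11.17, 11.25, 11.17 and 11.37 at 24 h. The 4 h and 24 h arrays all lay above those at 0 h. SCNN1A rose by 1.40 at 4 h (SE 0.304, 2.63-fold, limma adjusted p = 0.00139) and by 3.58 at 24 h (12-fold, adjusted p = 9.09e-13). At 2 h the value was 0.78 and was not called (adjusted p = 0.184). NI cells, with a 0 h level of 8.02 ± 0.13 (SD, n = 4), gave 0.48, 1.16 and 3.25, of which the last 2 were called. The NI call at 4 h ended without NI replicate 1 at 4 h (0.93, adjusted p = 0.0799), and the siNS call at 4 h ended when only the 2 groups were fitted (adjusted p = 0.0708).

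With siHic5_2, SCNN1A stood at 8.20, 8.56, 8.74 and 7.57 at 0 h, 8.95, 8.76, 7.95 and 8.03 at 2 h, and 8.02, 8.24, 8.39 and 7.86 at 4 h, which overlap throughout. At 24 h the arrays read 10.19, 9.38, 10.62 and 9.16, all above the earlier ones and all below the 8 arrays of NI and siNS cells at that time. The rise at 24 h was 1.57 (SE 0.304, 2.97-fold, limma adjusted p = 7.5e-05). Compared with siNS, SCNN1A was lower by 2.64-fold at 24 h (-1.40, SE 0.304, adjusted p = 0.000557) and by 1.9-fold at 4 h (-0.92, adjusted p = 0.0211). The 24 h difference was -1.79 to -0.55 within the 3 slides that held both groups. The call at 4 h was lost with the slide as a block (-0.87, adjusted p = 0.066) and without siHic5_2 replicate 4 or siNS replicate 1 or 4 (-0.84 to -0.81). The difference of the 24 h responses was -2.01 (SE 0.43, 95% interval -2.88 to -1.14, adjusted p = 0.00298), and that at 4 h was -1.53 and not called (adjusted p = 0.11). Over 27 alternative fits, NI in place of siNS among them, the 24 h value ran from -2.27 to -1.63 (limma adjusted p at most 0.0176). The 4 h difference of responses was called in none of them, with a lowest adjusted p of 0.0512.

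NEDD4L, the ligase that SGK1 restrains, was lower after 24 h of hormone in both control states. Its levels ran from 7.47 to 8.85 in NI cells and from 7.40 to 8.56 in siNS cells at 0 h, and from 6.47 to 7.14 and 6.51 to 6.87 at 24 h, with no overlap. Replicate 1 was the highest array in NI and siNS cells at 0, 2 and 4 h, so that the spread within a group was wide. NEDD4L fell by 1.18 in NI cells (SE 0.358, limma adjusted p = 0.00897) and by 1.17 in siNS cells (adjusted p = 0.00968). Each call rests on that replicate: without replicate 1 at 0 h the values were -0.92 in NI (adjusted p = 0.0602) and -0.94 in siNS cells (adjusted p = 0.0559). In siHic5_2 cells the 24 h value was -0.59, not called (adjusted p = 0.233), and the difference of the responses was 0.57, with a 95% interval of -0.45 to 1.60. No NEDD4L difference between siHic5_2 and siNS was called, with values from -0.14 to 0.43.

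ATP1B1, the pump's beta subunit, fell with hormone, and it was lower with siHic5_2 than with siNS at 2 and 4 h. In siNS cells the arrays read 11.39, 11.26, 11.37 and 11.34 at 0 h, 11.23, 11.09, 11.37 and 11.08 at 2 h, 10.81, 10.68, 10.96 and 10.84 at 4 h, and 10.33, 9.89, 10.46 and 10.57 at 24 h. The arrays at 4 h lay below those at 2 h and above those at 24 h, with no overlap. ATP1B1 fell by 1.03 at 24 h (SE 0.157, 2.04-fold, limma adjusted p = 1.2e-06) and by 0.51 at 4 h (adjusted p = 0.038), while the 2 h value was -0.15. The 4 h call in siNS cells was lost with median scaling (-0.54, adjusted p = 0.209), with no filter (adjusted p = 0.0659) and without any 1 of 7 of the 8 arrays. NI cells gave -0.15, -0.46 and -0.88, of which the last was called (adjusted p = 1.78e-05). The NI value at 4 h was not called (adjusted p = 0.0752), and it was called with the replicate number as a block within each state (-0.46, adjusted p = 0.00529) or over all arrays (adjusted p = 0.0292).

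In siHic5_2 cells ATP1B1 read 11.17, 10.99, 11.08 and 10.62 at 0 h and 10.83, 10.42, 10.27 and 9.94 at 2 h, then 9.91, 10.09, 10.12 and 9.54 at 4 h and 10.19, 9.76, 10.07 and 9.74 at 24 h. The last 2 groups overlapped, so that the lowest level was reached by 4 h. Falls of 1.05 at 4 h (SE 0.157, limma adjusted p = 3.47e-06) and 1.03 at 24 h (adjusted p = 1.45e-06) were called. The fall at 2 h (-0.60, adjusted p = 0.025) was lost with median scaling (adjusted p = 0.288), with only the 2 groups fitted (adjusted p = 0.286) and without replicate 1, 2 or 3 at 0 h or replicate 3 or 4 at 2 h. Against siNS, ATP1B1 was lower by 1.77-fold at 2 h (-0.83, adjusted p = 0.000145) and by 1.88-fold at 4 h (-0.91, adjusted p = 2.98e-05), with no overlap at either time and within-slide values of -1.42 to -0.54. At 0 and 24 h it differed by -0.37, not called (adjusted p = 0.0868 and 0.0799), though the groups did not overlap at 0 h. The 24 h difference was called against NI in place of siNS (-0.51, adjusted p = 0.0127) and without siNS replicate 2 (-0.51) or siHic5_2 replicate 1 (-0.46). No difference of the ATP1B1 responses was called (-0.45, -0.54 and 0.00).

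Probe 2 of ATP1B1 gave smaller values. Its 24 h difference in siNS cells was -0.53 (limma adjusted p = 0.031), and those in NI (-0.40) and siHic5_2 cells (-0.35) were not called. With siHic5_2 probe 2 differed by -0.72 at 4 h (adjusted p = 0.00517) and by -0.50 at 2 h (adjusted p = 0.0652, not called). Both probes are assigned to the same transcript record.

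KCNA5 rose from background to a bright signal within 2 h in siNS cells, and it stood higher with siHic5_2 at 0, 2 and 4 h. No siNS array was above background at 0 h (5.67, 5.67, 5.57 and 6.02) and 1 of 4 NI arrays was. The siNS arrays read 10.16, 10.96, 10.02 and 10.54 at 2 h, 10.43, 11.01, 10.48 and 10.68 at 4 h, and 9.16, 10.12, 8.54 and 9.76 at 24 h. That is a rise of at least 19.7-fold, 23.1-fold and 9.7-fold (limma adjusted p = 1.06e-15, 1.74e-16 and 2.07e-13). NI cells gave 4.19, 4.51 and 3.23 (SE 0.295), against a 0 h mean for which 3 of 4 arrays were dim.

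The siHic5_2 arrays of KCNA5 were all above background at 0 h, at 6.81, 7.65, 7.38 and 7.65, higher than every NI and siNS array. They read 11.38, 11.69, 10.97 and 11.92 at 2 h, 11.73, 11.94, 12.32 and 12.27 at 4 h, and 9.36, 10.46, 9.74 and 9.88 at 24 h. KCNA5 rose by 4.12, 4.69 and 2.49 (SE 0.295, 17.4-fold, 25.9-fold and 5.62-fold) in these cells, with limma adjusted p-values of at most 6.43e-09. Against siNS it was at least 2.39-fold higher at 0 h (adjusted p = 6.95e-05), 2.1-fold at 2 h (1.07, adjusted p = 0.00709) and 2.67-fold at 4 h (1.41, adjusted p = 0.000369), with no overlap at any of these times. At 24 h it differed by 0.47, not called (adjusted p = 0.28), and the groups overlapped. Within the 2 slides that held both groups it was higher by 0.42 to 1.36 at 2 h and by 1.64 to 1.79 at 4 h.

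In the main fit, which has no replicate term, no difference in the fold rise of KCNA5 between siHic5_2 and siNS cells was called. No size is given, since siNS cells were dim at 0 h, and the adjusted p-values were 1, 0.997 and 0.148. The 24 h test passed with the replicate number as a block, within each state (limma adjusted p = 0.0104) or over all arrays (adjusted p = 0.0133). It also passed without siNS replicate 3 at 24 h (adjusted p = 0.041). At 24 h the outcome thus depends on whether the replicate number is in the model. Against NI in place of siNS, where 1 array measured the 0 h level, the difference of responses was -0.07, 0.18 and -0.74 at 2, 4 and 24 h and was not called (adjusted p = 1, 0.946 and 0.46).

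KCNJ16 was above background in NI and siNS cells at 24 h and nowhere else. The NI arrays read 8.73, 8.73, 8.89 and 8.48 at that time and the siNS arrays 8.81, 8.85, 9.11 and 8.56. All 40 other arrays of KCNJ16 probe 1 were dim, with group means of 4.98 to 5.61. The rise over 0 h was at least 5.34-fold in NI and 6.57-fold in siNS cells (limma adjusted p = 9.91e-19 and 5.75e-19). The siHic5_2 arrays at 24 h read 6.13, 5.35, 5.62 and 5.35, none above background. KCNJ16 was therefore at least 6.35-fold lower with siHic5_2 than with siNS (adjusted p = 5.49e-16), and the difference of the 24 h responses was called (adjusted p = 1.52e-10) with no size given. The siHic5_2 value at 24 h was called higher than at 0 h (adjusted p = 0.0319) with both groups below background, so it is not read as a rise. Probe 2 of KCNJ16, assigned to another transcript record, was above background on 1 array, of NI cells at 0 h.

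**Figure D3:**
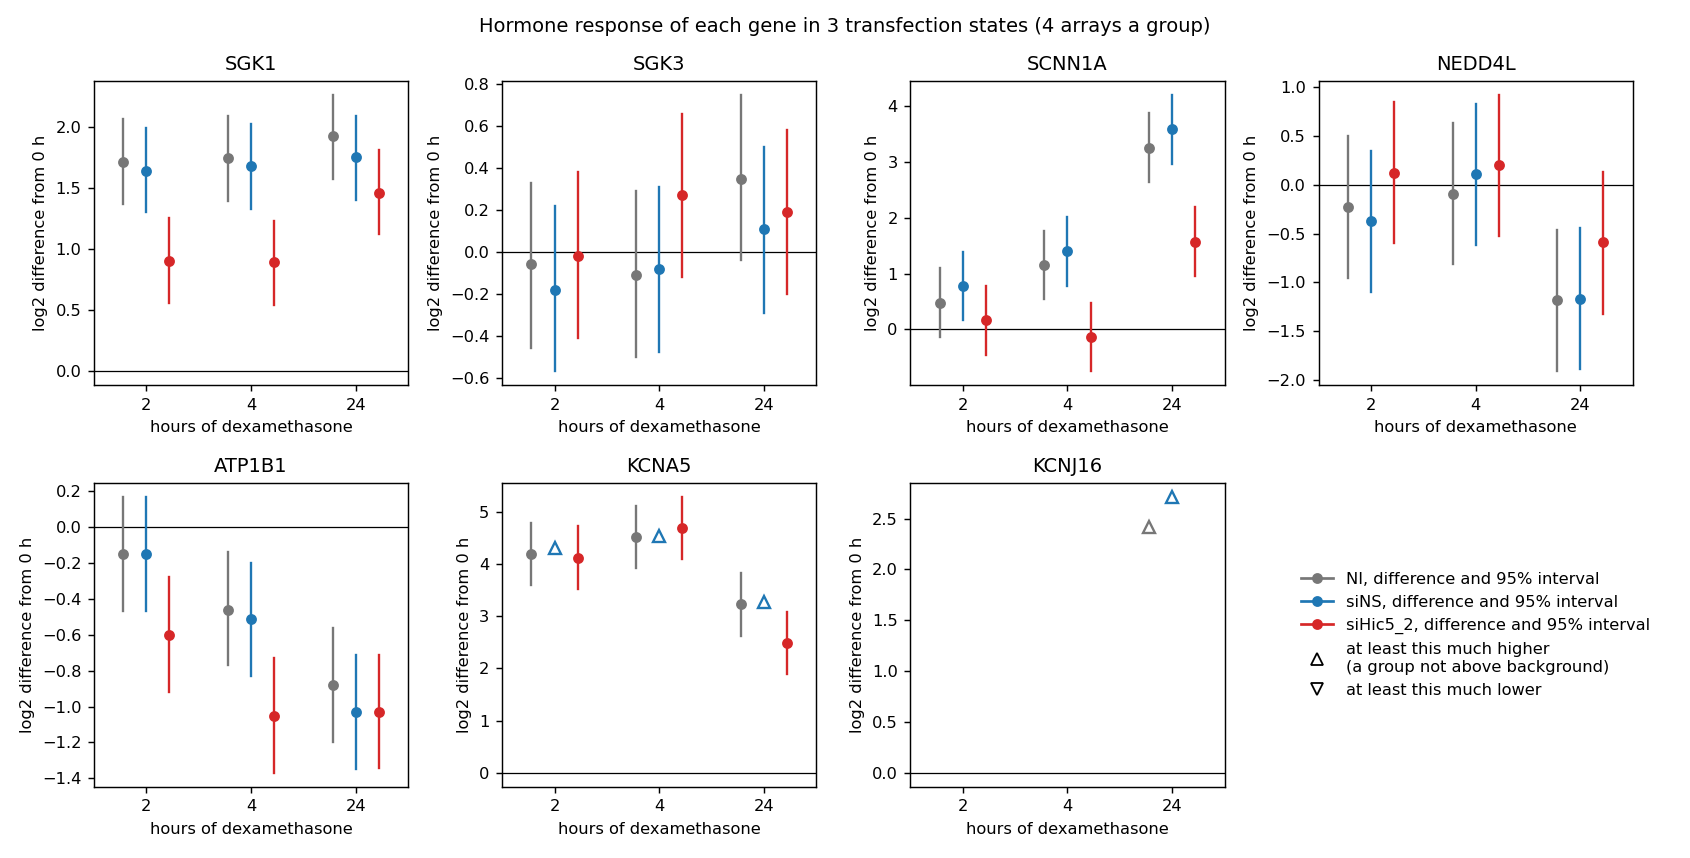
Difference from 0 h on the log2 scale (vertical axis, 1 scale per panel) at 2, 4 and 24 h of dexamethasone, by transfection state, with points for the fitted difference and bars for its 95% interval. Open triangles are lower bounds on the log2 scale where the 0 h group was not above background, and no mark is drawn where both groups were dim. SCNN1A shows 3.25 and 3.58 in NI and siNS cells at 24 h and 1.57 in siHic5_2 cells.

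Counted over the 7 leading probes, the hormone response in siNS cells held 2 genes higher and 0 lower at 2 h, 3 and 1 at 4 h, and 4 and 2 at 24 h. Over all probes limma called 3.91, 6.39 and 32.7% at these times, as 377, 747 and 3346 probes higher and 441, 589 and 3487 lower. NI cells had 2 higher and 0 lower at 2 h, 3 and 0 at 4 h, and 4 and 2 at 24 h, beside 2.34, 6.72 and 32.3% of all probes, as 271, 787 and 3242 higher and 218, 618 and 3505 lower. In siHic5_2 cells 2, 2 and 4 genes were higher and 1 was lower at each time, beside 2.33, 9.70 and 29.3%, as 273, 941 and 3018 higher and 214, 1088 and 3107 lower. The 7 genes include known glucocorticoid targets, which bears on these counts, and 1 of the 4 higher at 24 h in siHic5_2 cells is the dim KCNJ16. With the replicate number as a block within each state the calls over all probes went from 489 to 891 and from 1405 to 2262 at 2 and 4 h in NI cells. The same block gave 1685 in place of 818 and 2124 in place of 1336 in siNS cells, and 826 in place of 487 and 3532 in place of 2029 in siHic5_2 cells.

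The knockdown comparison called SGK1 and KCNA5 higher at 0 h, KCNA5 higher and ATP1B1 lower at 2 h, SGK3 and KCNA5 higher and SCNN1A and ATP1B1 lower at 4 h, and SCNN1A and KCNJ16 lower at 24 h. That is 2, 2, 4 and 2 of 7 leading probes, where limma called 20.8, 20.6, 26.0 and 24.3% of all probes. Those were 2250, 2358, 2668 and 2594 probes higher and 2099, 1951, 2778 and 2483 lower, so that calls were common over the whole array. For the difference of the hormone responses 0 of 7 were called at 2 and 4 h (0.110% of all probes, as 2 higher and 21 lower, and 0.383%, as 27 higher and 53 lower). Unadjusted limma p-values under 0.05 were those of SGK1 (0.0038 and 0.00227) and ATP1B1 (0.0489 and 0.0203) at 2 and 4 h. SCNN1A had the smallest, 0.000958 at 4 h. At 24 h SCNN1A and KCNJ16 were called, both smaller with siHic5_2, where 2.80% of all probes were called, as 292 higher and 293 lower. The nonspecific siRNA alone was set against NI with all times pooled. There limma gave 0 of 20912 called probes, 379 having an unadjusted p under 0.05. The 5 leading probes above background in all groups differed by -0.15 to 0.01.

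**Figure D4:**
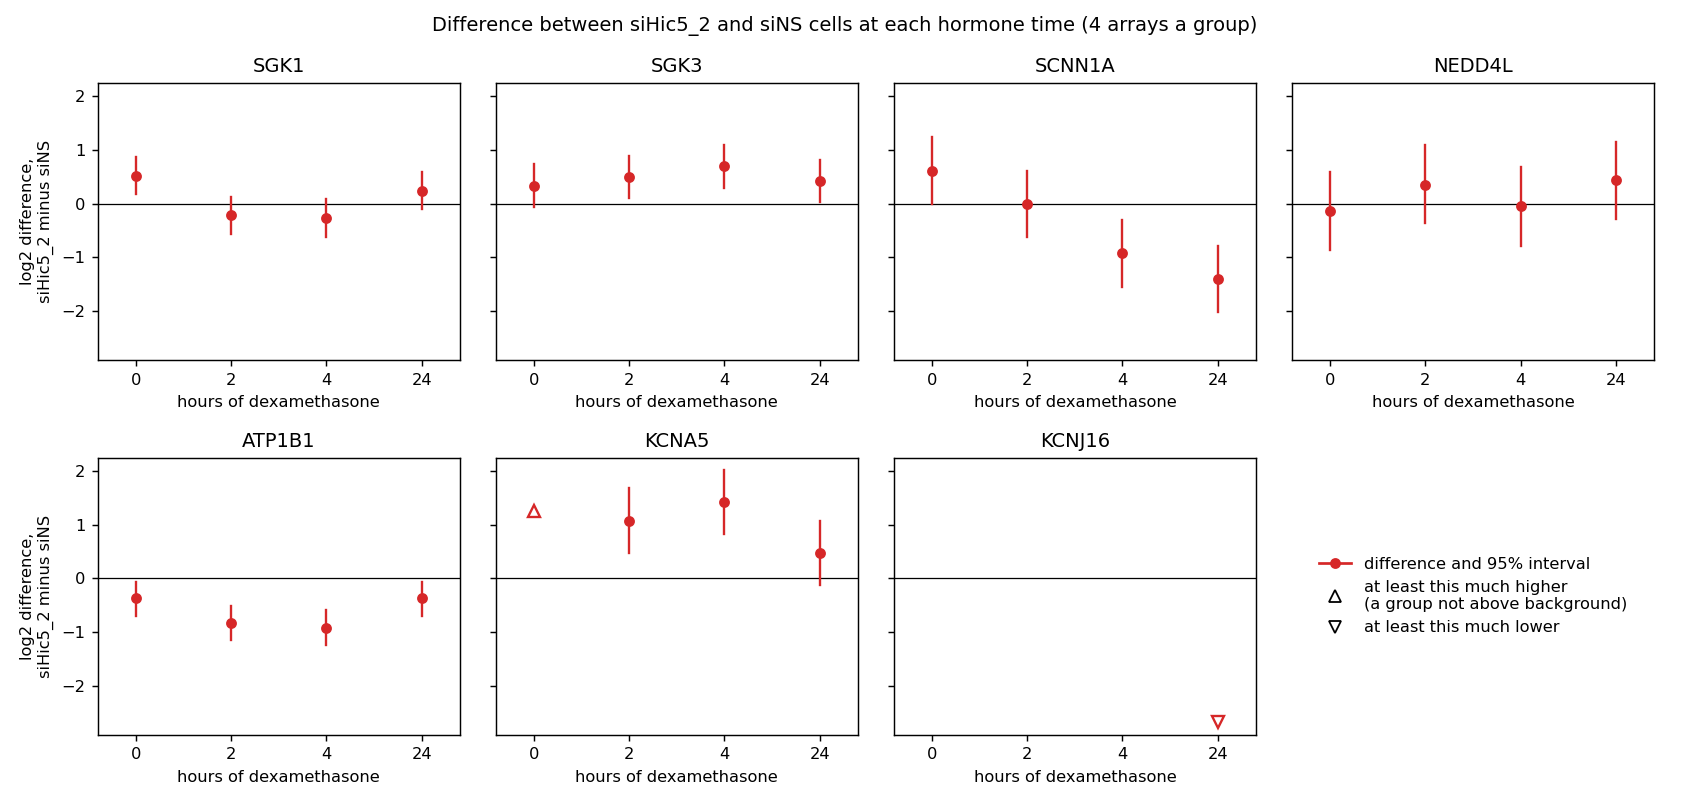
Difference between siHic5_2 and siNS cells on the log2 scale (vertical axis, shared) at 0, 2, 4 and 24 h of dexamethasone for the leading probe of each gene, with the 95% interval of the fit. Open triangles are bounds where 1 group was not above background, at least 2.39-fold higher for KCNA5 at 0 h and at least 6.35-fold lower for KCNJ16 at 24 h. SCNN1A runs from 0.61 at 0 h to -1.40 at 24 h.

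By order of level, the 3 SGK1 groups without hormone were the lowest, and the 9 groups with hormone overlapped from neighbour to neighbour. For SCNN1A the 24 h groups of NI and siNS cells stood apart from all others. KCNA5 had gaps in order between the hormone groups, the siHic5_2 group at 0 h and the 2 control groups at 0 h. ATP1B1 ran from siNS at 0 h (11.34) down to siHic5_2 at 4 h (9.91), with 1 gap, between siNS at 4 h and NI at 24 h. Over the 12 group means SCNN1A and KCNJ16 correlated at a Pearson r of 0.918, SGK1 and KCNA5 at 0.832, and SCNN1A and NEDD4L at -0.881. These means share their arrays and the hormone time, and KCNJ16 is dim in 10 of them, so the values describe the courses only.

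The genes nearest to each member over the 12 group means, among 11885 others, were these. SGK1 ran closest to F3 (tissue factor, r = 0.994), PDK4, an inhibitor of pyruvate oxidation (0.993), and ZFP36, an mRNA decay factor (0.985). SCNN1A ran closest to NEXN (0.994), the leukotriene pathway protein ALOX5AP (0.991) and PLEKHA6 (0.983). KCNA5 was nearest to MMP25 (0.97), the G protein regulator RGS2 (0.965) and FAM90A1 (0.954). KCNJ16 was nearest to CCDC175 (0.996), the collagen-binding integrin subunit ITGA1 (0.995) and TEDDM1 (0.995). For ATP1B1 they were the glutaredoxin GLRX (0.98), GTPBP3 (0.973) and CXADR (0.971), for NEDD4L PKNOX1 (0.97), RIOK1 (0.968) and ZNF215 (0.964), and for SGK3 TIGD1 (0.97), CC2D1B (0.963) and SNPH (0.945). Each is the best of 11885 genes over only 12 means, so a high r says little by itself. For KCNJ16 it rests on NI and siNS cells at 24 h, its only groups above background, and the SGK3 probe was dim.

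Around the channel, ENaC's other subunits and regulators gave 5 of 10 genes above the filter. In siNS cells 1 was higher at each hormone time and 0, 1 and 1 were lower, beside 3.91, 6.39 and 32.7% of all probes called in either direction. The list's median difference at 24 h was 0.34 in siNS, -0.17 in NI and -0.35 in siHic5_2 cells (all probes -0.02, -0.02 and -0.01). TSC22D3 (GILZ), which raises ENaC at the cell surface, rose by 3.17, 3.50 and 4.49 at 2, 4 and 24 h (SE 0.151, limma adjusted p at most 1.19e-19). It was higher with siHic5_2 at 0 h by 1.67, and the difference of its responses was -1.85, -1.91 and -1.67 at 2, 4 and 24 h, smaller with siHic5_2 (adjusted p at most 1.45e-06). In level, 0 of the 5 genes were called between siHic5_2 and siNS at 2 and 24 h, and at 4 h only 1, NR3C2, was. A lower TSC22D3 level with siHic5_2 was thus not shown at 2, 4 or 24 h, and its smaller response goes with its higher level at 0 h. NR3C2, the mineralocorticoid receptor, fell by 1.36 at 4 h and 1.13 at 24 h, and differed by -0.90 and -0.85 with siHic5_2 at 0 and 4 h. The protease PRSS8 and the cortisol-inactivating enzyme HSD11B2 were on 0 arrays.

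Among partners of the SGK kinases 9 of 11 passed the filter. In siNS cells 2, 2 and 3 rose and 0, 1 and 1 fell at 2, 4 and 24 h, where 3.91, 6.39 and 32.7% of all probes were called. Both leading risers are known substrates of SGK1. NDRG1 rose by 1.26, 1.60 and 1.64 (SE 0.129) and FOXO3, a transcription factor held out of the nucleus by such phosphorylation, by 0.77, 1.25 and 2.37 (SE 0.152). PRR5, a subunit of the mTORC2 complex that activates SGK1, fell by 1.01 at 4 h and 0.98 at 24 h. PDPK1, its other activating kinase, rose by 0.58 at 24 h. With siHic5_2, 2, 1, 1 and 2 of the 9 were higher at the 4 times and 0, 0, 1 and 0 lower, a share near that of all probes (20.8, 20.6, 26.0 and 24.3%). MTOR was higher at each time, by 0.48, 0.49, 0.69 and 0.38 (limma adjusted p at most 0.00665), NDRG1 by 0.56 at 24 h, and MAPKAP1, another mTORC2 subunit, differed by -0.51 at 4 h.

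In the NEDD4 family of ligases and adaptors 8 of 10 genes passed. With siHic5_2, 3, 3, 2 and 3 of them were higher and 2, 1, 2 and 1 lower at the 4 times, with medians of 0.25 to 0.35 (all probes 0.00 to 0.01), where 20.8, 20.6, 26.0 and 24.3% of all probes were called. WWP2 was higher by 1.40, 1.34, 1.05 and 1.22, and HECW2 by 1.92, 1.87 and 1.65 at 0, 2 and 4 h. NDFIP2, an adaptor that activates these ligases, differed by -1.43, -1.39, -1.42 and -1.46 (SE 0.196, limma adjusted p at most 1.65e-06). NEDD4 itself differed by -0.66 at 0 h and -1.32 at 4 h. With hormone in siNS cells 0 of them were called at 2 and 4 h, and at 24 h WWP1 and ITCH rose, by 0.66 and 0.43, while HECW2 was at least 2.07-fold lower.

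Of 13 other pump genes 3 passed, and no alpha subunit of the pump is named on the array by the annotation used here. ATP1B3, another beta subunit, was higher with siHic5_2 by 0.54, 0.79 and 0.91 at 0, 2 and 24 h (SE 0.183, limma adjusted p at most 0.0295). The sign was opposite to that of ATP1B1, which was called at 2 h alone of these times. At 4 h, where ATP1B1 was also called lower, ATP1B3 was not called. The FXYD proteins modulate the pump. FXYD6 fell by 1.11 with 24 h of hormone in siNS cells and differed by -0.84 with siHic5_2 at 2 h, and FXYD5 differed by -0.74 at 24 h.

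Relatives of the potassium channels were mostly dim: 3 of 10 Kv1 genes and 5 of 14 Kir genes passed. In siNS cells KCNA4 (Kv1.4) was at least 1.81-fold, 1.32-fold and 4.25-fold higher at 2, 4 and 24 h (limma adjusted p at most 0.0114). KCNA1 (Kv1.1) fell by 2.41 at 4 h (SE 0.753, adjusted p = 0.0434) and was at least 5.78-fold lower at 24 h. KCNJ4 (Kir2.3) rose by 1.41 at 2 h and 2.61 at 4 h in siNS cells and was 5.93 at 24 h, near its 0 h mean of 5.79. In siHic5_2 cells KCNJ4 was 8.67 at 24 h, higher by 2.74 (SE 0.358, adjusted p = 1.9e-07), the reverse of KCNJ16 at that time. The difference of its 24 h responses was 1.71 and not called (adjusted p = 0.057). KCNJ4 was above background on 36 arrays in all, and its siNS means at 0 and 24 h were near background. The sizes of its differences from those means are therefore uncertain. KCNJ2 (Kir2.1), above background on only 6 arrays, was at least 1.24-fold higher with 24 h of hormone in siNS cells. It differed by -0.78 with siHic5_2, a size limited by the same dimness.

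The WNK pathway, which controls cotransport of sodium and potassium with chloride, had 6 of 15 genes above the filter. With siHic5_2, 2, 2, 2 and 3 of them were higher and 0 lower, with medians of 0.18, 0.17, 0.31 and 0.39, where 20.8, 20.6, 26.0 and 24.3% of all probes were called. STK39, the kinase SPAK, was higher by 0.54, 0.85, 0.30 and 0.41 (SE 0.103, limma adjusted p at most 0.025) and rose by 0.83 with 24 h of hormone in siNS cells. OXSR1, its close relative, rose by 0.52 at 24 h. KLHL3, the adaptor through which WNK kinases are degraded, was at least 1.34-fold higher with 24 h of hormone. It was called higher with siHic5_2 at 0, 2 and 4 h, where siNS cells were dim and the signal allowed no bound on the fold. SLC12A2, the cotransporter NKCC1, fell by 0.48 with hormone at 24 h and was higher by 0.57 with siHic5_2, beside WNK3 (0.56).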

How the data were processed

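Per the file headers, the raw table has 1 intensity column and 1 detection p-value column per array, unnormalised as deposited, over 47323 probes and 883 control rows. The series matrix gives values that the authors had processed and deposited on a log2 scale. The submitters' processing notes name R 2.15.3 with limma 3.14.4. How values were normalised is not given here. The deposited detection p-values matched the own-named intensity column on 0 arrays and that of another array on 32, so they were recomputed from the 770 negative controls of each array. Intensities went through neqc in limma 3.58.1 (R 4.3.3): normexp with negative controls, an offset of 16, quantile normalisation and log2. The rule for the members names the processed values, which differed from these by at most 0.262 and are an alternative. Probes with a detection p under 0.01 on at least 4 arrays were kept. Precision is limited by 4 arrays per group, with a median SE of 0.221 for a difference of 2 groups. Array medians were 133.6 to 193. The highest rank correlation of any 2 arrays was 0.911, so none was taken as a repeat.

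A limma model of 12 group means (36 residual degrees of freedom) gave 17 contrasts. The procedure was tested on simulated data. Of 30113 probes with 1 symbol, 8 with several and 17202 unnamed here, genes were named from the first kind. Named are every member probe, from each of 7 pathway lists up to 4 called genes per kind of comparison with the largest differences, and the 3 genes whose 12 group means correlate best with a member's. Members and lists were chosen with earlier results of these data known, so their counts are no independent support.

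Same-numbered arrays deviated together between 0 h and each later time in NI (r 0.207 to 0.731) and siNS (0.216 to 0.726), in 12 of 12 pairs each, and in 11 of 12 pairs of siHic5_2 (0.0796 to 0.47). Between siNS and siHic5_2 at 1 time 0 of 16 pairs had r over 0.1, while 15 of 16 pairs of NI and siNS did (r -0.0118 to 0.743). The numbers were therefore taken to pair the hormone times within each state, but not siNS with siHic5_2. Whether siHic5_2 cells were handled in other runs than NI and siNS cells is not in the labels. Such a difference could not be told apart from that of the siRNA. Within states the pairing was weakest in siHic5_2 cells, with a median r of 0.242, against 0.428 in NI and 0.34 in siNS cells. Alternatives, listed in the closing section, were the processed values, no background correction, another offset, median scaling, 2 filters, 1 probe per gene, blocks of slide and replicate, the 2 groups alone and leaving out each array. NI in place of siNS and the replicate block within each state were added after seeing the data. Figures were drawn with matplotlib 3.10.9.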

Additional observations from a re-analysis of the deposited data

Results flagged for a closer look

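The first results were singled out because the hormone response differed between siHic5_2 and siNS cells by the test of the difference itself. For SCNN1A the 24 h response was smaller with siHic5_2 by -2.01 (limma adjusted p = 0.00298). For KCNJ16 the 24 h test gave an adjusted p of 1.52e-10, with siHic5_2 cells not above background at any time. Another 6 values stood apart because 1 array of 4 lay far from the rest of its group, by Dixon's criterion at 95% over 84 groups of leading probes, where chance marks about 1 group in 20. They were SGK1 in NI cells at 0 h (replicate 2 at 10.34, the others 11.03 to 11.08), SGK1 in siNS cells at 2 h (replicate 2 at 12.48, the others 12.64 to 12.67) and SGK3 in siHic5_2 cells at 4 h (replicate 4 at 7.02, the others 7.21 to 7.24). The other 3 were KCNJ16 values below background: 5.33 in NI cells at 0 h (replicate 1), 5.85 in NI cells at 2 h (replicate 4) and 5.04 in siNS cells at 2 h (replicate 3).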

How the results depend on the processing

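With median scaling the median of all probes moved from -0.02 to -0.13 for 24 h against 0 h in NI cells, the largest such shift, and limma called 1 member gene and 2681 probes in place of 4349 at 0 h of the knockdown, and 13, 49 and 365 probes in place of 23, 80 and 585 for the difference of responses. KCNJ16 was filtered out when 24 arrays above background were required, which left 1 member called at 24 h for the knockdown and 1 for the difference of responses. With 1 probe per gene fewer features were tested, and 3609 and 1323 were called for the knockdown and the siHic5_2 response at 4 h. The slide block gave 497 probes for siNS at 2 h. The replicate block over all arrays, whose numbers do not pair siHic5_2 with siNS, gave 163 probes for the difference of responses at 4 h. The replicate block within each state, added after seeing the data, gave 53, 254 and 1459 for the differences of responses, beside the hormone counts in the report (NI 891 and 2262, siNS 1685 and 2124, siHic5_2 826 and 3532), and changed no other member call than ATP1B1 at 4 h in NI and KCNA5 for the 24 h difference. Fitting only the 2 groups compared gave 1 member at 0 h of the knockdown and 1 at 2 h in siHic5_2 cells, and 226 and 914 probes in NI at 2 and 4 h, 426 in siNS at 2 h and 1241 in siHic5_2 at 4 h. Leaving out 1 array gave 1 to 2 members at 0 h of the knockdown and 47 to 120 probes for the difference of responses at 4 h. The lowest of these were without siNS replicate 4 (47) or 1 (48) at 4 h. Within slide 1 SGK1 at 0 h of the knockdown turned to -0.03. The cause of these moves was not tested, save where fewer features or samples make it plain. The rise of SCNN1A and KCNA5 at 24 h in siNS cells and the smaller SCNN1A response at 24 h kept their calls wherever the gene was tested. So did the lower KCNJ16 level with siHic5_2 at 24 h. KCNJ16, though, passed the filter only through NI and siNS cells at 24 h, where it was high. Its calls at that time are thus tied to the filter and are no independent support. KCNA5 passed mainly through the hormone groups. The authors' processed values changed 1 member call, KCNJ16 at 4 h of the knockdown (-0.46), where both groups are dim. Signal over background limits KCNA5 at 0 h, KCNJ16 and SGK3.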
